A study of Gossypium herbaceum with 12 samples.

Results

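The probe sets described here were strongly repressed by drought in roots of RAHS-14, a drought-sensitive genotype of the diploid cotton Gossypium herbaceum, and stood at like levels in watered roots of RAHS-14 and of the drought-tolerant genotype Vagad. They were chosen by the measured intensities of 9 of the 12 arrays, those of droughted RAHS-14, watered Vagad and watered RAHS-14. With intensities below 16 set to 16 and taken to log2, the mean of droughted RAHS-14 minus that of watered RAHS-14, called R here, had to be -2 or less, and the mean of watered Vagad minus that of watered RAHS-14, called G, had to lie within 1 of 0. All 3 droughted RAHS-14 arrays also had to lie below all 3 watered RAHS-14 arrays, and the mean watered RAHS-14 intensity had to be at least 64. Of 24029 probe sets without the control probe sets of the array, 67 met the rule. The 3 droughted Vagad arrays took no part in the choice, so whether the 67 also fell in Vagad could be measured.

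RNA of roots was hybridised to Affymetrix cotton arrays, with 3 biological replicates, from plants grown 1 to a pot, of droughted Vagad, watered Vagad, droughted RAHS-14 and watered RAHS-14. Plants were grown for 4 weeks before treatment. Drought was imposed by withholding water so that soil moisture stayed below 30%, while control pots were irrigated. The labels add that droughted pots were watered in alternate weeks, whereas the paper gives a single period without water, and the sources used here do not settle which applied. No further treatment is given, and 1 genotype stands for each drought class. The array carries sequences of several cotton species, and G. herbaceum RNA was measured with them, so that a mismatch between genotype and probe can lower an intensity; a level is compared here only within 1 probe set.

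When soil dries, a root responds largely through abscisic acid, slows or redirects its growth and resets its transcription. Genes of cell expansion and cell wall remodelling, of auxin and ethylene responses and of transport are well-known classes that change in droughted roots. A gene that falls in a sensitive and not in a tolerant genotype is often sought as a candidate for the contrast between them, and one that falls in both is part of a response that both share. A probe set measures RNA per amount of root RNA, and fewer cells of a type and less RNA per cell cannot be told apart in such bulk samples.

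Replicates 1 and 2 of droughted Vagad stood apart from the other 10 arrays. Their median intensities were 322 and 345.3, against 60.8 to 74.2 on the other 10 arrays, 2.16% and 0.25% of their probe sets lay at or below 16, against 24.7% to 29.8%, and their mean correlation with the other 10 arrays over log2 intensities was 0.61 and 0.461, against 0.9735 to 0.9828 among those 10. Replicate 3 of droughted Vagad was one of the 10 by these measures, but its ratio of 3′ to 5′ actin control intensity was 41.3, against 12.5 to 20.2 on the other 9. Its median intensity over non-plant control probe sets was 2592, against 758 to 1922 on the other 9. The main counts in Vagad are therefore given for each array and for tests with and without replicates 1 and 2. The labelled tissue was checked with 13 probe sets. The summed intensity of 5 named for the root genes MIC1 and peroxidase 73 was 1989 to 2997 in droughted Vagad, against 5069 to 5701 in watered Vagad, and 1791 to 1833 in droughted RAHS-14, against 8583 to 9176 in watered RAHS-14. That of 8 named for the leaf genes Lhcb1, PORA and CRD1 was 2881 to 8400 in droughted Vagad, against 2680 to 3068 in watered Vagad, and 2022 to 2122 in droughted RAHS-14, against 3897 to 4065 in watered RAHS-14. Replicate 3 gave the lowest droughted Vagad sum for both tissues, with 3 of 5 root probe sets at least 2-fold lower and 1 higher, and 1 of 8 leaf probe sets lower and 2 higher. In RAHS-14, 2 of 5 root and 2 of 8 leaf probe sets were at least 2-fold lower. None of the 13 lay at or below 16 on all of the 10 arrays, but 2 of the MIC1 probe sets were below 16 on all droughted RAHS-14 arrays. There most of the root sum came from peroxidase 73 (1589 to 1631). In droughted RAHS-14 and on all 3 droughted Vagad arrays the root sum lay below the leaf sum, most widely on Vagad replicates 1 and 2. On these arrays the check does not by itself tell root from leaf, and the tissue is that of the labels. Both sums moved with drought in RAHS-14, several of the names came from lists chosen on these arrays, and the part of either tissue in the results was not tested. No probe set was matched to expansin EXP7 or to the small subunit of ribulose bisphosphate carboxylase.

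In RAHS-14 the choice fixed the direction, and the values are a description without a test. The mean intensity of the 67 probe sets was 2.41 to 1269 with a median of 84.2 in droughted RAHS-14, against 65.6 to 5980.4 with a median of 478 in watered RAHS-14. R ran between -5.77 and -2.001 with a median of -2.29, a 4.9-fold fall. It was -3 or less for 9 probe sets and above -2.5 for 45, so most lay near the threshold. Of all 24029 probe sets, 0.445% (107) had an R of -2 or less, and all 107 also met the conditions on overlap and on level. Of these, 35 were left out because G was -1 or less, and 5 because it was 1 or more. In 9 of the 67 at least 2 droughted RAHS-14 values lay at or below 16, in 4 of them all 3, so their R is a lower bound on the fall.

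The watered genotypes were alike only within the limit set by the rule. G ran between -0.99 and 1.00 with a median of 0.16, and it was above 0 for 39 probe sets and below 0 for 28. It lay within 0.5 of 0 for 40. The 3 watered Vagad arrays all lay above the 3 watered RAHS-14 arrays for 25 probe sets and all below them for 13. The same counts were not made over all probe sets, so whether these are unusual is not known. As a rank within its array, the median member stood at the 72.1 to 74.9 percentile in watered Vagad and at the 71.3 to 72.7 percentile in watered RAHS-14. The 3 values just inside the threshold on R were -2.001 (Ghi975.2.S1_s_at), -2.02 (GhiAffx8476.2.A1_x_at) and -2.02 (Ghi6463.1.S1_at), and the 3 just outside were -1.99 (Ghi7449.1.S1_at), -1.99 (Ghi9194.1.S1_a_at) and -1.98 (GhiAffx8476.1.A1_x_at). For G the upper limit fell between 1.00, 0.95 and 0.90 inside (Ghi7874.1.S1_s_at, Ghi8128.1.S1_x_at and Ghi9633.2.S1_s_at) and 1.17, 1.26 and 1.59 outside (Ghi1606.1.S1_at, GhiAffx22764.1.A1_at and GhiAffx4305.1.S1_at). The lower limit fell between -0.99, -0.96 and -0.89 inside (GhiAffx36369.1.S1_at, GhiAffx3717.1.S1_s_at and GhiAffx24550.1.S1_at) and -1.04, -1.04 and -1.08 outside (Ghi9253.2.A1_a_at, Ghi10620.1.S1_at and GhiAffx1161.1.S1_at).

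**Figure D1:**
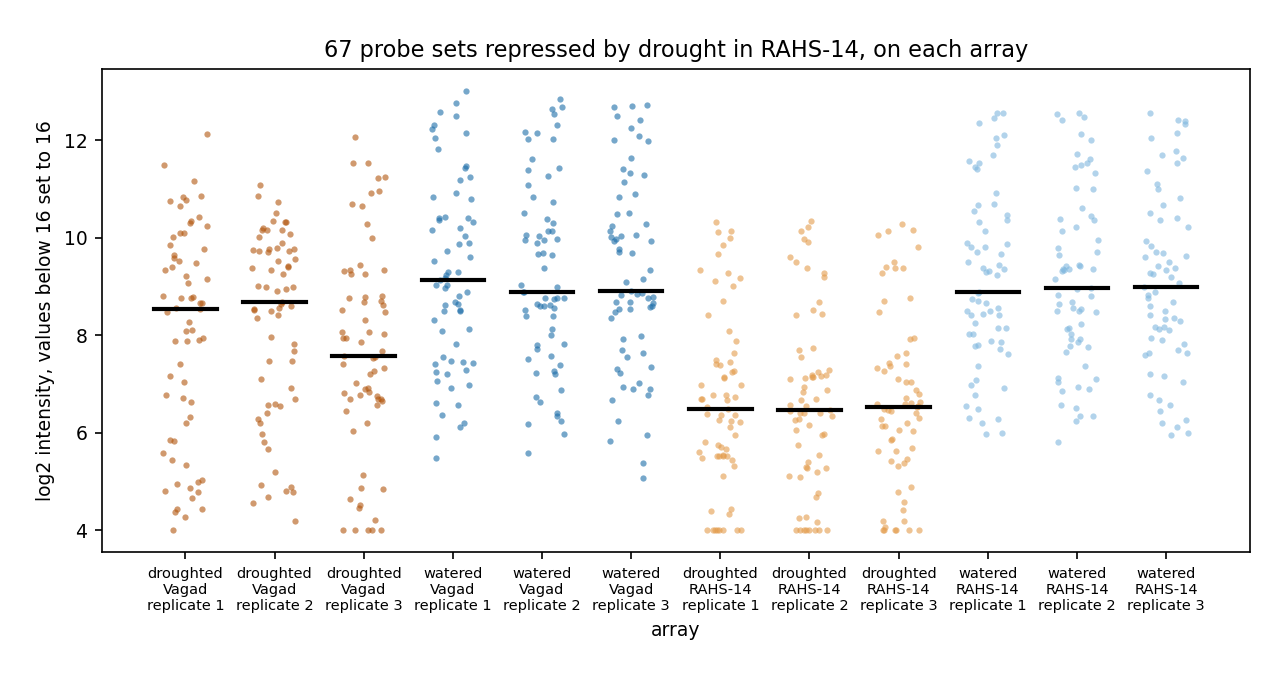
Each point is the log2 intensity of 1 of the 67 probe sets on 1 array, with values below 16 set to 16, and each black line is the median of the 67 on that array. The median intensity is 190.2 on droughted Vagad replicate 3, against 475 to 558 in watered Vagad, and 88.2 to 92.6 in droughted RAHS-14, against 471 to 505 in watered RAHS-14, while on droughted Vagad replicates 1 and 2 it is 371 and 410.1.

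Droughted Vagad replicate 3 resembled the others in median and correlation, though not in its control probe sets. On it, 64 of the 67 probe sets lay below the mean of watered Vagad and 50 (74.6%) lay at least 2-fold below it. The same held for 3.97% of all 24029 probe sets and for 5.49% of the 11780 probe sets that met the conditions of the rule on watered arrays alone. None of the 67 was at least 2-fold higher there, against 5.72% of all probe sets. The median difference was -1.62 on the log2 scale, against 0.00 over all probe sets and -0.02 over the 11780. A fall of at least 4-fold was measured for 16 of the 67, against 0.541% of all probe sets and 0.484% of the 11780. All 3 watered Vagad arrays lay above replicate 3 for 63 of the 67, against 23.4% of all probe sets and 38.8% of the 11780.

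Replicates 1 and 2 gave a more mixed picture. On replicate 1, 36 of the 67 were at least 2-fold below the watered Vagad mean and 9 at least 2-fold above it, against 16.5% and 47.7% of all probe sets. On replicate 2 it was 29 below and 10 above, against 19.4% and 51.3%. Among the 11780 probe sets with like levels in watered roots, 31.4% on replicate 1 and 38% on replicate 2 were at least 2-fold lower, so the 43.3% of the 67 on replicate 2 lay near that background. These counts depended on the scaling: with each array centred on its median, 62 and 61 of the 67 were at least 2-fold lower on replicates 1 and 2, as were 82.8% and 84.4% of the 11780. The median difference of the 67 was -1.25 on replicate 1 and -0.83 on replicate 2, against 0.87 and 1.08 over all probe sets and -0.23 and -0.47 over the 11780. Of the 50 probe sets lowered at least 2-fold on replicate 3, 31 were so lowered on replicate 1 and 24 on replicate 2, while 6 and 8 of them were at least 2-fold higher there. Counted over arrays, 19 of the 67 were at least 2-fold lower on all 3 droughted Vagad arrays, against 0.874% of all probe sets and 1.38% of the 11780, 20 on 2 of them, 18 on 1 and 10 on none. The 3 droughted Vagad arrays all lay below the 3 watered Vagad arrays for 28 of the 67, against 9.16% of all probe sets and 17.6% of the 11780. A fall on replicate 3 alone, without a 2-fold fall on the other two, was measured for 14 of the 67, against 1.8% of all probe sets and 2.09% of the 11780.

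**Figure D2:**
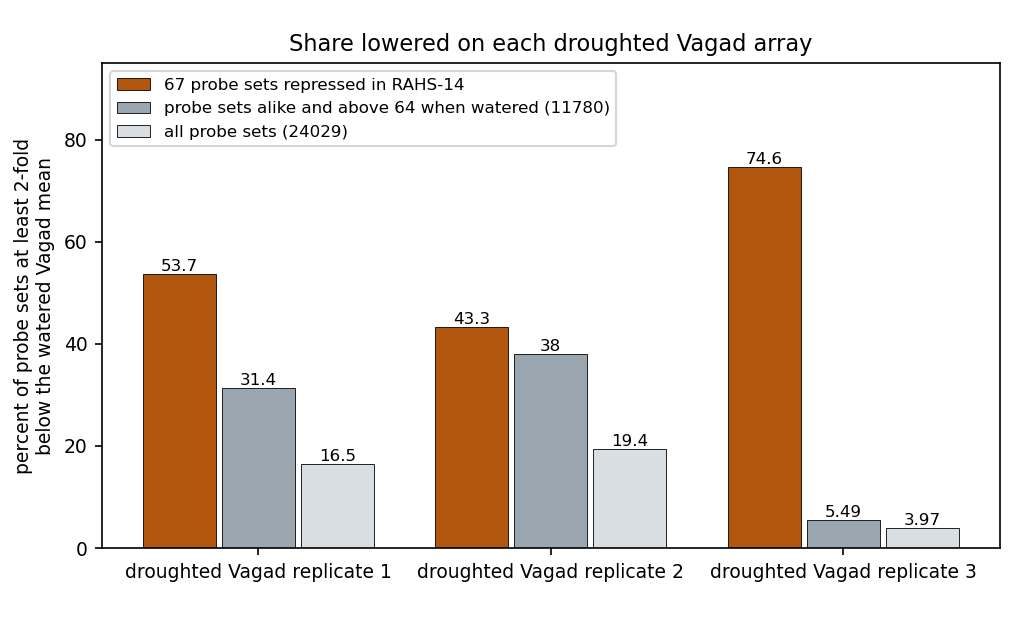
Bars give the percent of probe sets at least 2-fold below the mean of watered Vagad on each droughted Vagad array, for the 67 probe sets, for the 11780 probe sets with like levels and a mean of at least 64 in watered roots, and for all 24029. The bars of the 67 stand at 53.7%, 43.3% and 74.6%, and those of the 11780 at 31.4%, 38% and 5.49%.

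Tests across all 24029 probe sets gave different counts with and without the arrays that stood apart. In limma on the 6 Vagad arrays, called where the Benjamini-Hochberg adjusted p lay under 0.05 and the change was 2-fold or more, 0 of the 67 were called lower and 0 higher, against 0% of all probe sets in either direction, and the adjusted p of the 67 lay between 0.309 and 0.973. At an unadjusted p under 0.05 with the same fold minimum, 24 of the 67 were lower and 0 higher, against 2.41% and 10.9% of all probe sets. In 1 limma fit of the 10 arrays without replicates 1 and 2, in which the lone replicate 3 took its spread from the remaining groups, 45 of the 67 were called lower and 0 higher, against 2.8% and 3.19% of all probe sets and 4.08% lower among the 11780. Log2 changes of the 45 ran between -3.39 and -1.03 with a median of -1.85, their standard errors between 0.05 and 0.43 and their adjusted p between 4.22e-07 and 0.0338. With replicate 3 and the 3 watered Vagad arrays alone, so that no array of RAHS-14 set the spread, 24 of the 67 were called lower and 0 higher, against 1.17% lower of all probe sets, and 23 of the 24 were among the 45. Each of the last 2 tests rests on 1 droughted Vagad array, and the watered Vagad arrays, though not the droughted one, had entered the rule through G. In the fit of 10 arrays, part of the spread also came from the RAHS-14 arrays, which had chosen the members through R.

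The fall in Vagad replicate 3 was mostly smaller than that in RAHS-14. With values below 16 set to 16, it was smaller for 59 of the 67 and larger for 8, and at the median it was 64.3% of R on the log2 scale. For 5 of the 67 that setting fixes which fall is larger, which leaves 57 smaller and 5 larger. The intensity on replicate 3 lay above all 3 droughted RAHS-14 arrays for 58 of the 67 and below all 3 for 3, against 54 and 13 on replicate 1 and 51 and 11 on replicate 2. The same counts were not made over all probe sets. On replicates 1 and 2, 47.7% and 51.3% of all probe sets lay at least 2-fold above the watered Vagad mean. As a rank, the median member stood at the 61.1 percentile on droughted Vagad replicate 3 and at the 72.1 to 74.9 percentile in watered Vagad, and at the 52.0 to 52.8 percentile in droughted RAHS-14. On replicates 1 and 2 it stood at the 54.1 and 54.3 percentile. These differences between genotypes under drought use the arrays that chose the members, so they are a description without a test. Over the 67 probe sets the size of the fall on replicate 3 followed R little (Pearson's r = 0.113 and Spearman's rho = 0.157 over 67 probe sets on shared arrays, R being limited by the rule). Of the 39 with G above 0, 30 were at least 2-fold lower on replicate 3, and of the 28 with G below 0, 20 were.

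**Figure D3:**
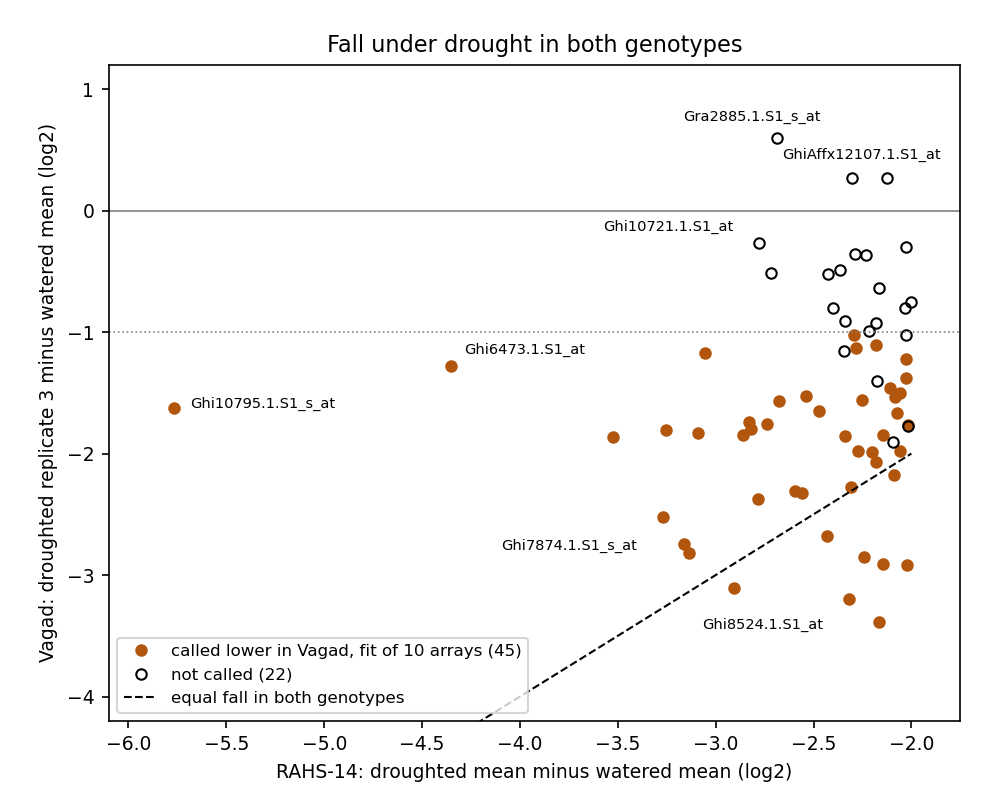
Each point is 1 of the 67 probe sets, with R in RAHS-14 on the x axis and the difference between droughted Vagad replicate 3 and the watered Vagad mean on the y axis, both in log2. Filled points are the 45 called lower in the fit of 10 arrays, open points the 22 not called, the dashed line marks an equal fall, the dotted line a 2-fold fall, and 3 open points lie above 0.

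Of the 10 probe sets with the lowest R, 9 fell less on Vagad replicate 3 than in RAHS-14, the exception being Ghi3805.1.A1_s_at. Picking by the lowest R favours a smaller fall on an array outside the choice, so this count is a description only. Of the 22 named members called lower in the fit of 10 arrays, 8 were not called with replicate 3 and the watered Vagad arrays alone: Ghi10795.1.S1_s_at, Ghi6473.1.S1_at, GbaAffx196.1.A1_s_at, GhiAffx2746.1.S1_at, GhiAffx56319.1.S1_at, Ghi3805.1.A1_s_at, Ghi9633.2.S1_s_at and GhiAffx8476.2.A1_x_at. Values below are scaled intensities in the order of the replicates, and changes are log2 differences of droughted minus watered Vagad. Ghi10795.1.S1_s_at, which has no gene name in the sources used here, had 56, 46.7 and 70.5 in droughted RAHS-14, against 3031, 3345 and 2952 in watered RAHS-14, an R of -5.77 and the largest fall of the 67. It had 98.4, 326 and 642 in droughted Vagad, against 2325, 1820.5 and 1834 in watered Vagad. All 3 droughted Vagad arrays lay below the 3 watered ones and above the 3 droughted RAHS-14 arrays, and the change in the fit of 10 arrays was -1.62 ± 0.24 log2 (SE, limma adjusted p = 0.00494). Ghi6473.1.S1_at is annotated as PDF6, a name that could not be compared with a printed table of the paper. PDF6 is a subunit of prefoldin, the co-chaperone that hands unfolded actin and tubulin to the cytosolic chaperonin. Ghi6473.1.S1_at had 52, 34.7 and 43 in droughted RAHS-14, against 901, 884 and 826 in watered RAHS-14, an R of -4.35. It had 247, 753 and 232 in droughted Vagad, against 626, 508 and 567 in watered Vagad. Replicates 1 and 3 of droughted Vagad were below the watered arrays and replicate 2 above them, and the change without replicates 1 and 2 was -1.28 ± 0.21 (SE, limma adjusted p = 0.00854), against an adjusted p of 0.445 with all 6 Vagad arrays.

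GhiAffx15721.1.S1_at, without a name, had 104, 139 and 132 in droughted RAHS-14, against 1496, 1340.4 and 1448 in watered RAHS-14, and it had 31.8, 62.3 and 355 in droughted Vagad, against 1319, 1343 and 1214 in watered Vagad. The droughted arrays lay below the watered ones in both genotypes, with replicates 1 and 2 of Vagad lower than any droughted RAHS-14 array and replicate 3 higher. Its change in the fit of 10 arrays was -1.86 ± 0.16 (SE, limma adjusted p = 0.00046). GhiAffx44794.1.S1_at, also unnamed, had 141, 141 and 93.3 in droughted RAHS-14, against 1123, 1198 and 1191 in watered RAHS-14, and it had 376, 507 and 316 in droughted Vagad, against 1135, 1044 and 1127 in watered Vagad, so that all 3 droughted Vagad arrays were lower than the watered ones and higher than those of droughted RAHS-14. Ghi3652.1.S1_s_at had 39.7, 36.6 and 29.4 in droughted RAHS-14, against 284, 299 and 311 in watered RAHS-14, but replicate 1 of droughted Vagad, at 405.8, was above the watered Vagad arrays (252 to 280.2) and replicates 2 and 3, at 77.3 and 73.8, below them. GhiAffx2746.1.S1_at also divided the droughted Vagad arrays, with 448, 946 and 18.6 in droughted Vagad, against 172, 106 and 123 in watered Vagad. Replicates 1 and 2 lay above the watered arrays and replicate 3 below them.

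A pair of probe sets tied to ethylene-response factors was lower under drought in RAHS-14 and called lower in Vagad in the fit of 10 arrays. In the fit of the 6 Vagad arrays neither was called (limma adjusted p = 0.309 for both), and with replicate 3 and the watered Vagad arrays alone GhiAffx7865.1.S1_at was (0.0487) and GbaAffx196.1.A1_s_at was not (0.0582). These AP2/ERF transcription factors bind the GCC box of promoters and act downstream of ethylene and of stress signals. GhiAffx7865.1.S1_at, annotated as an ethylene-responsive element binding factor, had 2.22, 8.49 and 16.7 in droughted RAHS-14, against 89.3, 81.3 and 72.8 in watered RAHS-14, and it had 19.3, 176 and 0.55 in droughted Vagad, against 173, 154 and 118 in watered Vagad. Values below 16 have no order. On replicate 3 it was at least 9.16-fold below the watered Vagad mean, whereas replicate 2, at 176, lay above all watered Vagad arrays. With replicate 3 set to 16, its change in the fit of 10 arrays was -3.20, a lower bound on the fall (limma adjusted p = 9.46e-05). GbaAffx196.1.A1_s_at carries no name, but the other probe set made on the same sequence is annotated as ATEBP, the Arabidopsis ethylene-responsive element binding protein. It had 125, 145 and 138 in droughted RAHS-14, against 1283, 1319 and 1319 in watered RAHS-14, and it had 11.8, 410.1 and 411 in droughted Vagad, against 1938, 2659 and 2568 in watered Vagad. All droughted arrays lay below all watered ones in Vagad and in RAHS-14, with a change of -2.53 ± 0.18 in the fit of 10 arrays (SE, limma adjusted p = 0.000143). The other probe set of that sequence was dim, with a mean of 26.3 in watered RAHS-14, an R of -0.67 and a difference of -1.44 on Vagad replicate 3.

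Ghi7874.1.S1_s_at, which the array annotation links to LOC107940910 without a described function, had 153, 144 and 169 in droughted RAHS-14, against 1416, 1390.4 and 1357 in watered RAHS-14, and it had 21.7, 385 and 413 in droughted Vagad, against 2847, 2735 and 2719 in watered Vagad. Its watered values were close together in each genotype, all 3 droughted Vagad arrays lay below the watered ones, and its change in the fit of 10 arrays was -2.74 ± 0.08 (SE, limma adjusted p = 1.07e-06). It was among the 5 with the smallest p in that fit, with Ghi6780.1.S1_s_at, GhiAffx967.1.A1_at, Ghi5750.1.S1_s_at and Ghi3427.1.A1_s_at. Ghi6780.1.S1_s_at had 1097, 1452 and 1601 in droughted Vagad, against 6092, 6353 and 6528 in watered Vagad, and 915, 964 and 900.0 in droughted RAHS-14, against 4422, 4476 and 4538 in watered RAHS-14, an R of -2.27. GhiAffx967.1.A1_at had 1719, 672 and 1643 in droughted Vagad, against 5092, 5056 and 5463 in watered Vagad, and 1278, 1292 and 1238 in droughted RAHS-14, against 5205, 5443 and 5376 in watered RAHS-14. In these 2 probe sets the droughted and watered arrays did not overlap in either genotype, and the changes were -1.98 ± 0.05 and -1.66 ± 0.05 (SE, limma adjusted p = 4.22e-07 and 1.38e-06). Ghi3427.1.A1_s_at fell furthest on the arrays that stood apart: it had 25.2, 27.5 and 153 in droughted Vagad, against 628, 662 and 642 in watered Vagad, with a change of -2.07 ± 0.07 without them. Ghi5750.1.S1_s_at, linked to LOC107889256, was among the brightest members and had 915, 359 and 2431 in droughted Vagad, against 6981, 7326 and 6709.7 in watered Vagad, with a change of -1.53 ± 0.05.

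Of the members with a name, 3 are described next by what their names say, which could not be compared with a printed table. They form no tested group, and none was in the keyword list for the cell wall. Endo-1,4-beta-glucanases cut beta-1,4-linked glucan chains and are used in wall loosening and in cellulose deposition. GhiAffx56319.1.S1_at, annotated as one, had 269, 214 and 242 in droughted RAHS-14, against 1917, 2032 and 2044 in watered RAHS-14, and it had 1377, 1071 and 690.3 in droughted Vagad, against 1811, 1443 and 1446 in watered Vagad. All droughted Vagad arrays lay below the watered ones, but by less than in RAHS-14, with a change of -1.17 ± 0.16 in the fit of 10 arrays (SE, limma adjusted p = 0.00411). Xylan 1,4-beta-xylosidases release xylose from xylan, a hemicellulose of the wall. Ghi9633.2.S1_s_at, annotated as one, had 5.71, 3.91 and 3.13 in droughted RAHS-14, against 77.6, 55.8 and 63.4 in watered RAHS-14, all 3 droughted values below 16, and it had 142, 18.1 and 9.99 in droughted Vagad, against 151, 98.4 and 119 in watered Vagad. Replicate 1 of droughted Vagad lay within the watered range and replicates 2 and 3 far below it, replicate 3 below 16, and the change without replicates 1 and 2 was -2.92 with that value set to 16, a lower bound on the fall (limma adjusted p = 0.000436). SAUR proteins are small, quickly induced products of auxin signalling that promote cell expansion. GhiAffx6062.1.S1_at, of this family, had 45.6, 33.9 and 27.5 in droughted RAHS-14, against 231, 262 and 246 in watered RAHS-14, and it had 802, 848 and 112 in droughted Vagad, against 396, 391 and 379.9 in watered Vagad. Replicates 1 and 2 lay above the watered Vagad arrays and replicate 3 below them, so that the direction in Vagad differed between arrays, with -1.80 ± 0.24 in the fit of 10 arrays (SE, limma adjusted p = 0.00356) and an adjusted p of 0.921 with all 6.

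Ghi6786.1.S1_at, annotated as a leucine-rich repeat protein kinase, a class that holds many receptors of the plasma membrane, was lowered more on Vagad replicate 3 than in RAHS-14. It had 371, 50.8 and 147 in droughted Vagad, against 1278, 953 and 972 in watered Vagad, and 139, 141 and 130.5 in droughted RAHS-14, against 693, 639 and 614 in watered RAHS-14. The droughted arrays did not overlap the watered ones in either genotype, and the change in the fit of 10 arrays was -2.85 ± 0.17 (SE, limma adjusted p = 5.64e-05), against an R of -2.24. A larger fall on replicate 3 than R was also measured for Ghi3805.1.A1_s_at, Ghi8524.1.S1_at, Ghi6696.1.S1_at and Ghi4814.1.A1_s_at. For GhiAffx6397.1.A1_at, GhiAffx7865.1.S1_at and Ghi9633.2.S1_s_at the droughted RAHS-14 values reached 16 or less, so that R is a bound and the order is not known. Ghi3805.1.A1_s_at, unnamed, had 132, 203 and 103 in droughted Vagad, against 602, 1122 and 1028 in watered Vagad, with every droughted array below every watered one and a change of -3.11 ± 0.43 (SE, limma adjusted p = 0.00384). Ghi8524.1.S1_at, without a name, had the lowest difference of the 67 on replicate 3 with values set to 16, -3.39, with 236, 668 and 108 in droughted Vagad, against 1345, 1004 and 1057 in watered Vagad, and 199, 94.4 and 164 in droughted RAHS-14, against 605, 691 and 662 in watered RAHS-14. The differences of the 5 members at or below 16 on that array are bounds and could be lower. The 3 droughted Vagad arrays of Ghi8524.1.S1_at lay below the watered ones, and its G was 0.79.

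**Figure D4:**
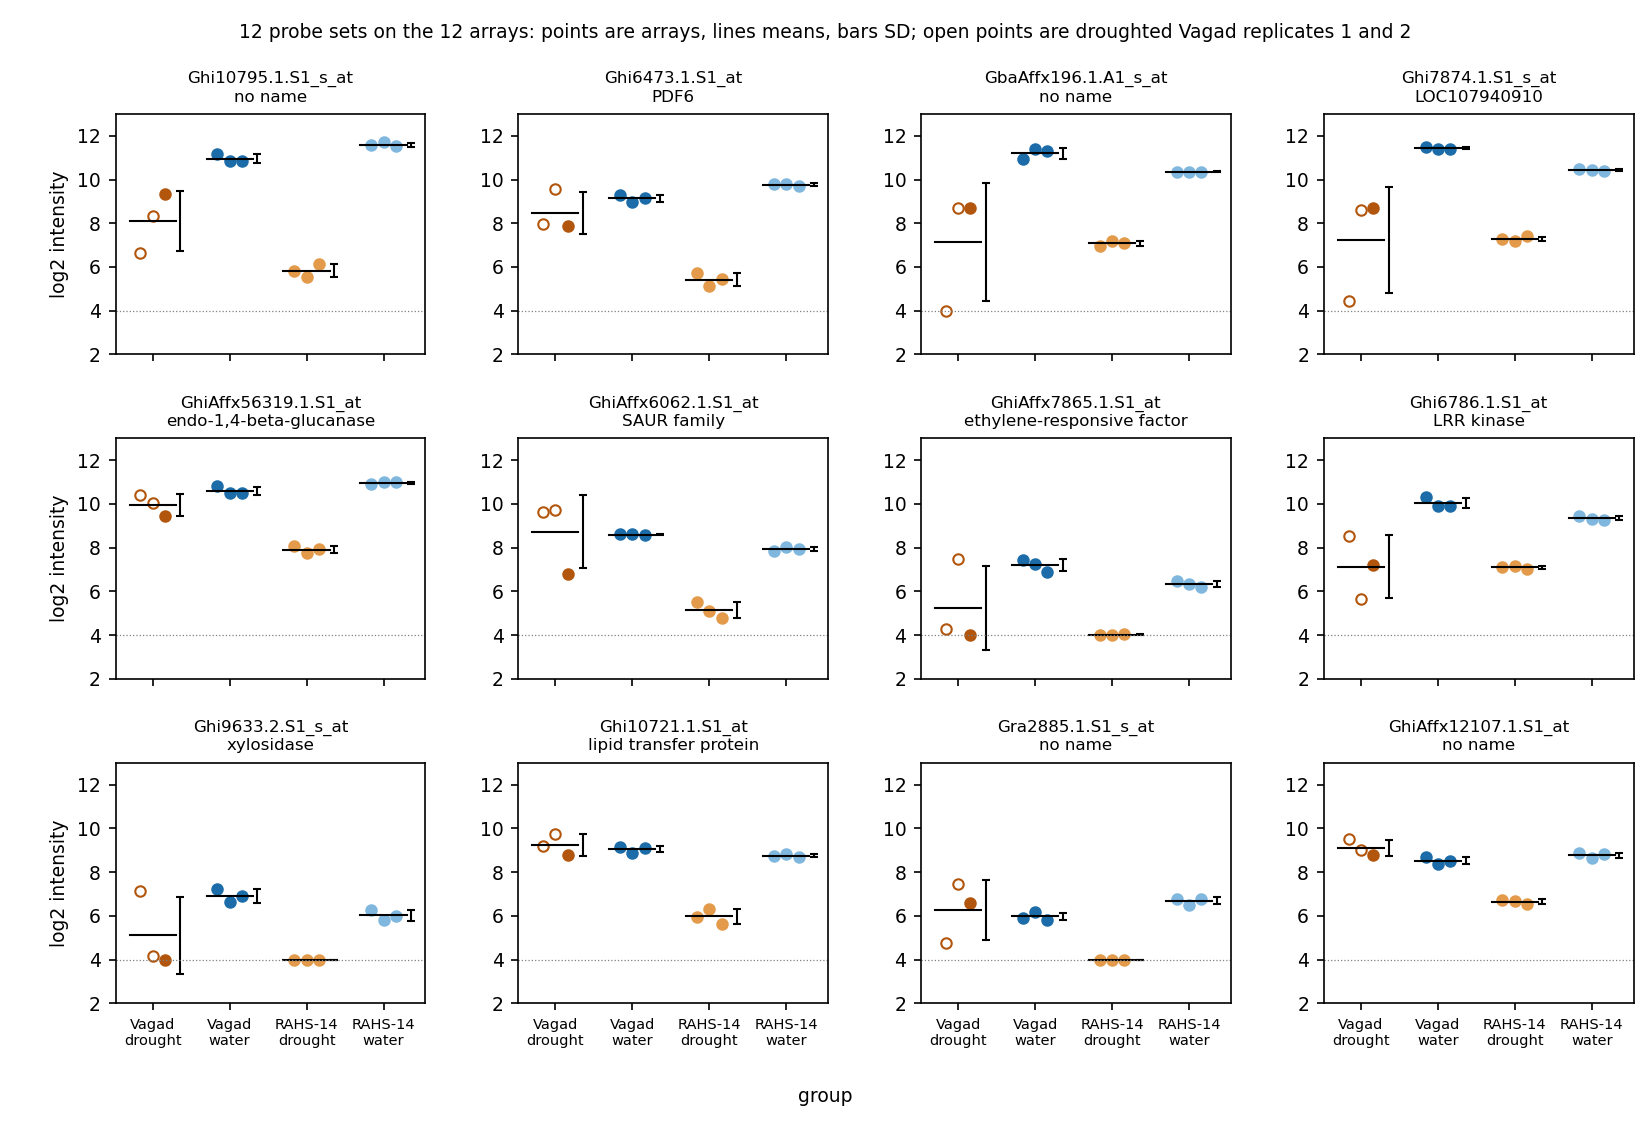
Log2 intensity of 12 probe sets in the 4 groups, with values below 16 set to 16 (dotted line at 4); each point is an array, lines are group means, bars are SD over 3 arrays, and open points are droughted Vagad replicates 1 and 2. In the 8 panels from Ghi10795.1.S1_s_at to Ghi6786.1.S1_at, in Ghi9633.2.S1_s_at and in Ghi10721.1.S1_at the filled droughted Vagad point lies below the watered Vagad points. In Gra2885.1.S1_s_at and GhiAffx12107.1.S1_at it lies above them.

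Some of the 67 were not lowered 2-fold in Vagad. On replicate 3, 17 of the 67 were less than 2-fold below the watered mean, and 3 were above it. Non-specific lipid transfer proteins are small secreted proteins that bind lipids and are linked to cutin and suberin deposition. Ghi10721.1.S1_at, annotated as one, had 62, 80.5 and 49.5 in droughted RAHS-14, against 429, 455 and 409 in watered RAHS-14, and it had 593, 865 and 439.5 in droughted Vagad, against 576, 474 and 543 in watered Vagad. In Vagad replicates 1 and 2 of drought lay above the watered arrays and replicate 3 below them, and the change in the fit of 10 arrays was -0.27 ± 0.25 (SE, limma adjusted p = 0.593), against an R of -2.78. GhiAffx12107.1.S1_at, unnamed, had 105.5, 103 and 92.6 in droughted RAHS-14, against 466, 396 and 453 in watered RAHS-14, and it had 734, 514 and 445 in droughted Vagad, against 409, 334 and 368 in watered Vagad. It was the only one of the 67 with all 3 droughted Vagad arrays above all 3 watered ones, against 18.2% of all probe sets and 10.9% of the 11780, and its change was 0.27 ± 0.14 without replicates 1 and 2 (SE, limma adjusted p = 0.264), so no rise was called. Gra2885.1.S1_s_at, unnamed, had 11.5, 15.5 and 11.8 in droughted RAHS-14, against 109, 90.6 and 109.9 in watered RAHS-14, and it had 27.4, 178 and 95.3 in droughted Vagad, against 60.3, 72.2 and 56.9 in watered Vagad. Replicate 1 of droughted Vagad lay below the watered arrays and replicates 2 and 3 above them, with a change of 0.60 ± 0.15 that stayed under the 2-fold minimum (SE, limma adjusted p = 0.0406).

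GhiAffx13857.1.A1_at had 579.8, 619.8 and 725 in droughted RAHS-14, against 3295, 2889 and 3297 in watered RAHS-14, and 2881, 1858 and 2963 in droughted Vagad, against 2438, 2473 and 2491 in watered Vagad. Replicates 1 and 3 of droughted Vagad lay above the watered arrays and replicate 2 below them, with a change of 0.26 ± 0.13 (SE, limma adjusted p = 0.231). Ghi7935.2.A1_s_at had 439.6, 25.8 and 368 in droughted Vagad, against 524, 436 and 407 in watered Vagad, so that replicate 1 lay within the watered range, replicate 3 below it and replicate 2 far below it, and its change was -0.30 ± 0.16 (SE, limma adjusted p = 0.287). The other members lowered less than 2-fold on replicate 3 lay between -0.99 and -0.36 there, among them GhiAffx6556.1.S1_at, GhiAffx3717.1.S1_s_at, Ghi9475.1.S1_s_at, Ghi10609.1.S1_s_at (linked to LOC107926247), GhiAffx33925.1.S1_at (LOC107913841) and Ghi975.2.S1_s_at (LOC107932682). Ghi9475.1.S1_s_at was among the brightest, with 622, 666 and 622 in droughted RAHS-14, against 4244, 4109 and 4193 in watered RAHS-14, and 4437, 2172 and 2974 in droughted Vagad, against 4522, 4142 and 4104 in watered Vagad. Its droughted Vagad values reached the watered range on replicate 1 and stayed below it on replicates 2 and 3. GhiAffx33925.1.S1_at varied between the watered Vagad arrays themselves, at 69.7, 224 and 241, and gave no call. For 5 members lowered at least 2-fold on replicate 3, the fit of 10 arrays made no call. They were GhiAffx57705.1.S1_s_at, Ghi7547.1.S1_x_at, GhiAffx36369.1.S1_at, Ghi2725.2.S1_at and Ghi6463.1.S1_at, with differences between -1.90 and -1.02.

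**Figure D5:**
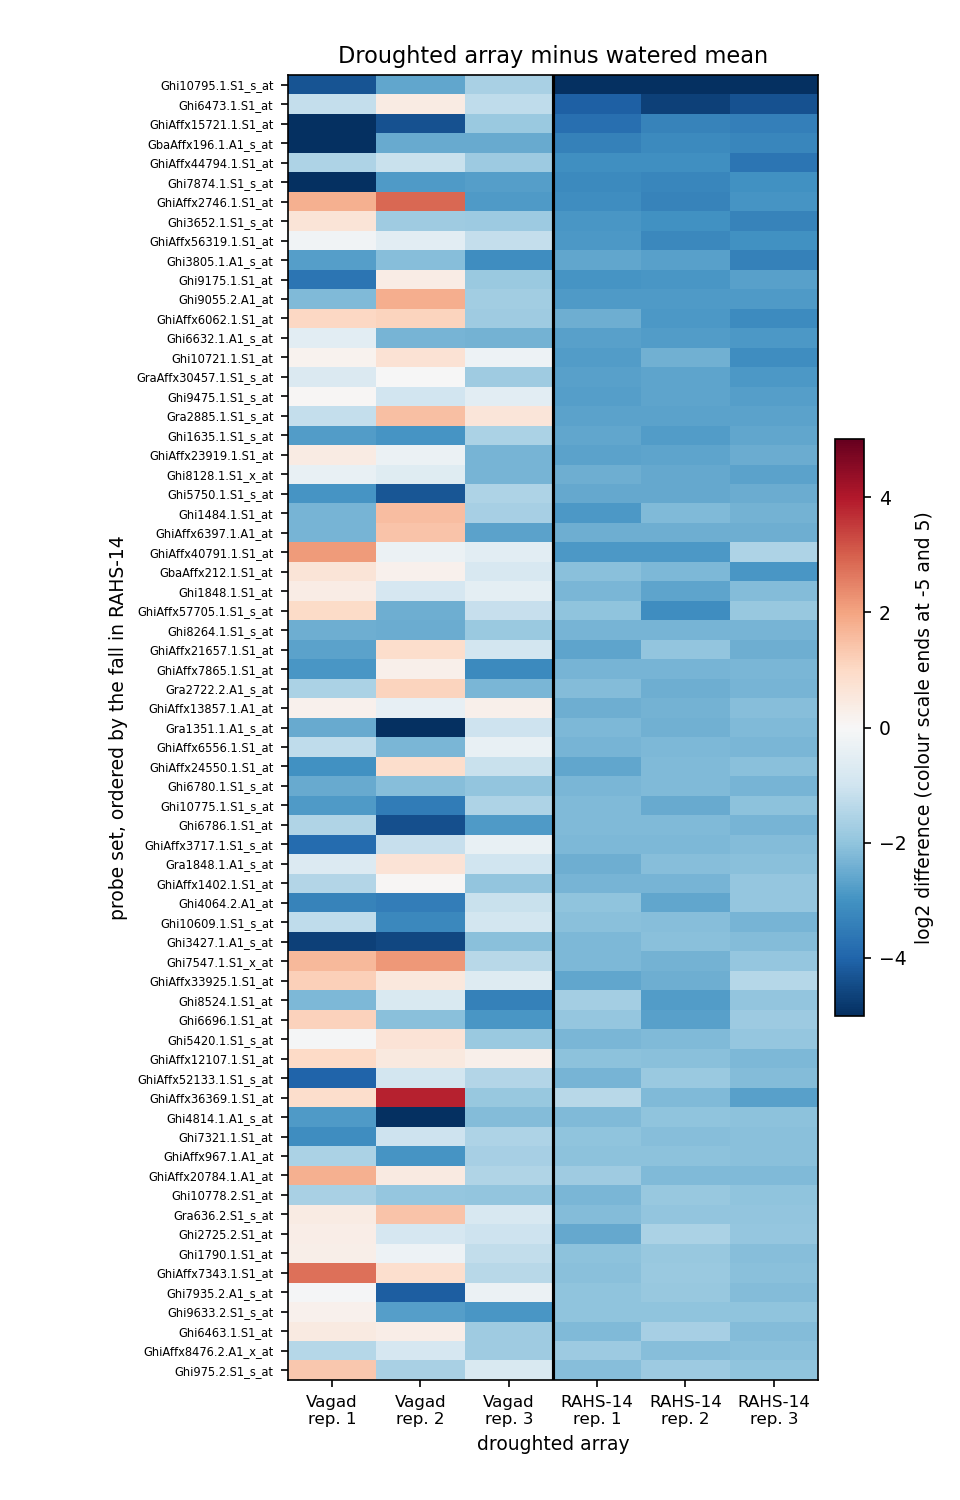
Colour gives the log2 difference of each droughted array from the watered mean of its genotype for the 67 probe sets, ordered by R, with blue lower and red higher and the scale ending at -5 and 5. The 3 RAHS-14 columns are blue throughout by the choice of the members, the column of Vagad replicate 3 is blue or pale in 64 of 67 rows, and the columns of replicates 1 and 2 mix blue with red.

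Names were known for few of the 67. The supplementary lists of the study named 11 and the array annotation gave a LOC number to 5 others, which left 51 without either. Of the 11, 8 came from a list of probe sets higher in droughted Vagad than in droughted RAHS-14, chosen on these arrays, so they are no neutral sample of the 67. Of these 8, 5 were at least 2-fold lower on replicate 3, as were the other 3 named members and 42 of the 56 without a name in the lists. In that list 3 names stood beside 3, 16 and 29 probe sets, and 4 probe sets with such a name were named otherwise in a printed table, so the names of Ghi1848.1.S1_at (a sodium/hydrogen exchanger), GhiAffx13857.1.A1_at (a serine/threonine protein kinase), Ghi8128.1.S1_x_at and Ghi1484.1.S1_at (unknown proteins) were not relied on. Those 4 were all the probe sets with such a name that a printed table also named. The names of Ghi6473.1.S1_at, GhiAffx56319.1.S1_at, GhiAffx6062.1.S1_at and Ghi10721.1.S1_at came from the same list. Each stood beside 1 probe set that no printed table named, so these names are unchecked. Ghi1848.1.S1_at had 1099, 478 and 606 in droughted Vagad, against 937, 796 and 825 in watered Vagad, and 174, 137 and 189 in droughted RAHS-14, against 946, 832 and 782 in watered RAHS-14; its change of -0.49 ± 0.19 made no call. Ghi8128.1.S1_x_at had -2.32 ± 0.18 and Ghi1484.1.S1_at -1.65 ± 0.28 in the fit of 10 arrays (SE, limma adjusted p = 0.000241 and 0.00846).

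Of 12 keyword lists over the annotated probe sets, 4 held members. In the fit of 10 arrays 14.6% of the 1056 annotated probe sets were called lower and 10.9% higher, against 2.8% and 3.19% of all probe sets, and the lists are read against these shares. The hormone list held 1 of its 19 probe sets (GhiAffx7865.1.S1_at), and in the fit of 10 arrays 8 of the 19 were lower and 4 higher under drought in Vagad. The lipid transfer list held 1 of 6 (Ghi10721.1.S1_at), with 0 of the 6 lower and 1 higher. The list of kinases and receptors held 2 of 76 (Ghi6786.1.S1_at and GhiAffx13857.1.A1_at), with 9 lower and 7 higher. The list of transporters and channels held 1 of 47 (Ghi1848.1.S1_at), with 6 lower and 3 higher. The other lists held none. GhiAffx13857.1.A1_at and Ghi1848.1.S1_at were counted by names that were not relied on. The name of GhiAffx13857.1.A1_at stood beside 29 probe sets, and 34 of the 76 came from the same supplementary list, so the count of kinases and receptors is uncertain. The keywords for transcription factors do not match the annotation of GhiAffx7865.1.S1_at, an ethylene-responsive element binding factor. That list therefore does not count every such factor. Among the 41 probe sets for the cell wall 2 were lower and 3 higher in Vagad, among 27 peroxidases and oxidases 12 and 3, among 69 transcription factors 13 and 11, and among 30 of secondary metabolism 5 and 3. Among 18 proteases 2 were lower and 2 higher, among 10 defence genes 7 and 0, among 13 of chromatin and cell division 0 and 0, and among 28 heat shock genes 1 and 11. In the fit of the 6 Vagad arrays 0 probe sets of any list were called. The study chose all annotated probe sets on these arrays, so their direction is not independent evidence.

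In most of their probe design the 67 were close to the 11780. The prefix GbaAffx was an exception, carried by 2 of the 67 (2.99%), by 0.238% of the 11780 and by 0.15% of all. Probe sets made on G. hirsutum sequence made up 88.1% of the 67, 87.3% of the 11780 with like levels in watered roots and 69.9% of all. Those made on G. raimondii sequence made up 8.96%, 12% and 29.4%. The suffix _s_at, for probes shared by several transcripts, was carried by 28 of the 67 (41.8%), by 45.4% of the 11780 and by 38.7% of all, and for these the intensity may sum near-identical genes. No 2 members belonged to the same sequence cluster. For 16 members the array held 19 other probe sets of their cluster, of which 3 had a mean of at least 64 in watered RAHS-14 and 5 were at least 2-fold lower in droughted RAHS-14. GhiAffx8476.1.A1_x_at, whose member is GhiAffx8476.2.A1_x_at, had an R of -1.98 and a difference of -1.85 on Vagad replicate 3, against -2.02 and -1.76 for the member. Ghi7935.1.S1_at and Ghi7935.3.A1_at had an R of -1.86 and -1.47, against -2.03 for Ghi7935.2.A1_s_at, and differed by -1.43 and -0.59 on replicate 3, against -0.30 for the member.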

How the data were processed

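RNA of 12 root samples was hybridised by the authors to 12 arrays and, per the labels, the deposited intensities were computed with MAS5, which scales each array by 1 factor. No version of MAS5 was found in the labels or the paper. The table held 24132 probe sets on a linear scale; 103 controls were left out and 0 value columns belonged to no mapped sample. Intensities below 16 were set to 16 and taken to log2, and the scaling was kept as deposited. Two-sided tests used lmFit and eBayes of limma 3.58.1 under R 4.3.3, and a call needed an adjusted p (Benjamini-Hochberg, over 24029 probe sets) under 0.05 and a 2-fold change. Tables and plots were made with Python 3.11.15, pandas 2.3.3, numpy 2.4.6 and matplotlib 3.10.9. The code was tested on simulated data.

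The members, the gene lists and the tests were chosen with earlier results of these data known. Probe sets were named in the text if they had 1 of the 10 lowest R, a name or LOC number, 1 of the 5 smallest p lower or 5 least lowered values without replicates 1 and 2, or stood next to a threshold; others are named as examples chosen after their values were seen. Names came from the supplementary lists and GEO's platform annotation, which gave 756 probe sets a LOC number. Probe set IDs are written without the dot that follows their letter prefix on the array. No sequence is shown, since none was at hand. Precision is limited by 3 arrays a group. Alternatives were other floors, scalings, thresholds, tests and sets of arrays. The authors' own comparison lists served for names only, and none of their values was used.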

Additional observations from a re-analysis of the deposited data

Results flagged for a closer look

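GhiAffx12107.1.S1_at had droughted arrays on opposite sides of the watered ones in the genotypes. Its lowest droughted Vagad intensity was 444.7, above all 3 watered Vagad arrays (334 to 409), while all droughted RAHS-14 arrays (92.6 to 105.5) lay below all watered ones (396 to 466). The difference between the genotypes was not tested, because the RAHS-14 arrays had chosen the probe set. On replicate 3, which resembled the other arrays in median and correlation, the difference from the watered mean was 0.27 on the log2 scale. No rise in Vagad was called (limma adjusted p = 0.413 with 6 arrays and 0.264 with 10), the change was -1.08 with each array centred on its median, and as a rank within its array replicate 2, at the 59.8 percentile, lay below the watered arrays (67.3 to 70.4).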

How the results depend on the processing

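The 0 members called lower and 0 higher on the 6 Vagad arrays stayed at 0 with a replicate block, after the methods' t-test with Benjamini-Hochberg adjustment (run on the deposited intensities, where the methods also name RMA values), without a fold minimum, with quantile normalization, median centring, a floor of 64 and only the brighter probe sets. Quantile normalization and median centring moved the median change of all probe sets to 0.05 and -0.82, against 0.84, and that of the members to -1.79 and -2.77, against -1.11. The count lower was 45 in the fit of 10 arrays, 17 with all 12 arrays, 19 by the methods' unadjusted t-test and 24 by unadjusted limma p. Of all probe sets, 673 were lower and 767 higher in the fit of 10 arrays, 208 and 529 with 12 arrays, 439 and 969 by the methods' t-test, 578 and 2623 by unadjusted limma p, and 1 lower with a floor of 64. Leaving out each Vagad array in turn gave 0 to 19 members lower and 0 to 3 higher, and 0 to 2008 probe sets lower and 0 to 7263 higher, the upper values all without droughted replicate 3, when the remaining droughted arrays were the pair that stood apart.

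Chosen after seeing the data, replicate 3 with the watered Vagad arrays alone gave 24 lower, replicate 1 as the only droughted Vagad array 36 lower and 8 higher (16.2% and 46.9% of all probe sets), and replicate 2 29 lower and 10 higher (19.3% and 50.5%). The fit of 10 arrays gave 50 lower by unadjusted p, 43 with quantile normalization, 38 with a floor of 64 and 42 to 47 without each watered Vagad array, against 853, 724, 474 and 566 to 923 of all probe sets. The rule gave 182 members at R of -1.5 or less, 22 at -2.5 or less, 54 with quantile normalization (47 shared), 47 with a floor of 64, 57 with a floor of 32, 69 with median centring (61 shared) and 64 to 68 without each array it used. Median centring put 62 and 61 members at least 2-fold lower on droughted replicates 1 and 2, with 57.9% and 55.9% of all probe sets; on replicate 3 the count was 43 to 53 over the 3 alternatives. Of 34 named members 0 were called in the 6-array fit, and 22 were lower in the fit of 10 arrays, where 5 changed sign against the 6-array fit. Same-numbered droughted and watered Vagad arrays deviated together little (correlations of 0.033, 0.013 and 0.047), so the replicate block, which called 0, pairs numbers only.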
